A study of Mus musculus with 74 samples.

Results

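Glucocorticoid hormones, corticosterone in the mouse, enter cells and bind the glucocorticoid receptor, which then moves to the nucleus and switches target genes on or off. The receptor is encoded by Nr3c1, and the enzyme encoded by Hsd11b1 regenerates active hormone inside the cell. Fkbp5 (a co-chaperone that lowers the receptor's affinity for hormone), Tsc22d3 (also called Gilz, an anti-inflammatory leucine zipper protein), Sgk1 (a serine/threonine kinase) and Zbtb16 (a zinc finger transcription factor, also called PLZF) are induced by the hormone in many tissues. Mt1 and Mt2 encode metallothioneins, small cysteine-rich proteins that bind zinc and copper and are induced by metals, by oxidative stress and by glucocorticoids. Corticosterone itself follows a daily rhythm. It was not measured in the files used here.

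These 8 genes were chosen by name from the RNA count table of 55487 genes, and all 8 were found there. Regions of open chromatin and of BMAL1 binding were theirs where the authors' annotation named the gene: 78 of 42572 accessible regions in brown fat, 43 of 25050 in white fat and 21 of 10368 BMAL1 peaks. The mice carried Adiponectin-Cre and the NuTRAP allele, so that the tag sat on ribosomes and nuclei of cells in which the adiponectin promoter is or was active. All RNA and ATAC samples share these alleles. The position of the brown depot (BAT) is not stated, and the white depot (WAT) was inguinal. Samples were taken at ZT1, ZT5, ZT9, ZT13, ZT17 and ZT21 (zeitgeber time, hours from lights on), with 3 RNA and 3 ATAC libraries per depot and time, except 2 RNA libraries of BAT at ZT17. That gave 17 BAT and 18 WAT libraries of RNA purified with tagged ribosomes, and 18 ATAC libraries of sorted nuclei per depot. BMAL1, a core clock transcription factor that pairs with CLOCK on E-boxes, was mapped at ZT4 by ChIP, in 2 libraries made from inguinal fat of the strain C57BL6J. The sources used here name no diet, feeding schedule, sex, age or light schedule, and no label says that libraries of one group came from separate animals, so p-values measure the spread between libraries only.

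The depth of RNA was 4980147 to 46274438 counts a library for BAT, against 1301522 to 6481154 for WAT. In 3 WAT libraries, ZT5 replicate 3, ZT9 replicate 3 and ZT17 replicate 2, over 50% of counts fell on loci of ribosomal RNA, and results that rest on WAT are given with and without them where this moves a call. All 6 adipocyte markers (Adipoq, Plin1, Lipe, Cidec, Fabp4, Lep) were detected in every RNA library. Their summed level ran from 26876 to 65733 CPM (counts relative to library size, scaled by TMM) in BAT and from 9182 to 74669 CPM in WAT. The 5 brown adipocyte markers, Ucp1 among them, summed to 4471 to 10383 CPM in BAT and 66.3 to 938 CPM in WAT.

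Sequence near the start sites shows which of these genes carry the letters that metal-responsive, glucocorticoid-responsive and clock factors are known to bind. RefSeq (GRCm38.p6, the same assembly as the mm10 build of the files) gave windows of 250 bases before and 50 bases after the start for 6 of the 8 genes, 13 windows in all. Nr3c1 and Zbtb16 had none. In all, 4 motifs were searched on both strands: the metal response core (TGCACNC or TGCGCNC), the receptor core (ACANNNTGT), the E-box (CACGTG) and the D-box core (TTANNTAA). The D-box core was found in none of the 13 windows. Beyond the sites printed below, the Hsd11b1 window holds 1 metal response core, 237 bases before its start. Of the Sgk1 windows not printed, that of the start at chr10:21994666 holds 1 metal response core. That of the start at chr10:21978672 holds 1 receptor core. Among 32817 mouse windows of this length, 25.7% hold a metal response core, 6.85% a receptor core, 7.15% an E-box and 6.00% a D-box core.

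By RefSeq's GRCm38.p6 annotation the genes lie at chr18:39410545-39519421 (Nr3c1, ENSMUSG00000024431), chr1:193221640-193264045 (Hsd11b1, ENSMUSG00000016194), chr17:28398753-28486149 (Fkbp5, ENSMUSG00000024222), chrX:140539528-140600522 (Tsc22d3, ENSMUSG00000031431), chr10:21882184-21999903 (Sgk1, ENSMUSG00000019970) and chr9:48651797-48836225 (Zbtb16, ENSMUSG00000066687). The metallothioneins are neighbours, with Mt2 (ENSMUSG00000031762) at chr8:94172618-94173567 and Mt1 (ENSMUSG00000031765) at chr8:94178883-94180327.

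The metallothionein windows are shown for their repeated metal response cores. The Mt2 window holds 4, a count that 0.518% of windows reach, and the Mt1 window holds 3, which 1.97% reach. The stretch of Mt2 is chr8:94172368-94172647, plus strand, and ends 30 bases into the transcript. Its capitals mark the metal response cores.

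Mt2: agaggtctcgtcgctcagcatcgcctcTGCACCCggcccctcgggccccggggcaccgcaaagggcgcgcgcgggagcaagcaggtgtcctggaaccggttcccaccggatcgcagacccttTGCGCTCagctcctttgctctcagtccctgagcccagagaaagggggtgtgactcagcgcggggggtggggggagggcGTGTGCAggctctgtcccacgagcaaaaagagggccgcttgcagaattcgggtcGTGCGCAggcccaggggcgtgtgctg

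For Mt1 only 30 bases around each site are given, at chr8:94178987-94179016, chr8:94179054-94179083 and chr8:94179089-94179118, plus strand. The first holds a receptor core 92 bases before the start site used by the table, the second a metal response core 23 bases before it, and the third a pair of metal response cores that begin 2 and 20 bases after it, all in capitals.

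Mt1 receptor core: cactatagggACATGATGTtccacacgtca

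Mt1 upstream metal core: gcggtcccgctgTGCACACtggcgctccag

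Mt1 start site metal cores: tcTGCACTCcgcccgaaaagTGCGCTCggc

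Fkbp5 and one of the Sgk1 windows are shown for their E-boxes. The Fkbp5 stretch is chr17:28486150-28486399, minus strand, the 250 bases before the start, with an E-box in capitals 169 bases upstream. The Sgk1 stretch is chr10:21993640-21993739, plus strand, the first 100 bases of a window that belongs to one of 6 annotated Sgk1 starts, and its capitals mark an E-box and then a receptor core.

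Fkbp5: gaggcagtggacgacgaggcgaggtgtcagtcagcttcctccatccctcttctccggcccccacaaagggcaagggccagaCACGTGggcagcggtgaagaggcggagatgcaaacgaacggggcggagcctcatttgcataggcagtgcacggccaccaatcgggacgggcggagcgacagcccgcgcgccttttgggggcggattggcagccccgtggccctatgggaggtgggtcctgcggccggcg

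Sgk1: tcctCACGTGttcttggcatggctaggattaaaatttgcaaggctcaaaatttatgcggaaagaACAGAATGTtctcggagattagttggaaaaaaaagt

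In BAT adipocytes, 5 of the 8 genes had a daily RNA rhythm: Mt2, Mt1, Fkbp5, Zbtb16 and Tsc22d3, all with a fitted peak between ZT10.4 and ZT17.1. Across all genes tested in BAT, 9.17% were called. The members were chosen with earlier results of these data known, so this contrast is a description and no test of enrichment. A rhythm was fitted as a cosine and a sine of 24 h with edgeR's quasi-likelihood test, and a call needed an adjusted p under 0.05 over all 12394 genes. The members' median peak-to-trough size was 0.85 on the log2 scale against 0.49 over all genes tested. Nr3c1, Hsd11b1 and Sgk1 were not called (adjusted p = 0.570, 0.748 and 0.980 in edgeR). In WAT adipocytes 1 of 8, Fkbp5, was called, against 9.90% of 12703 genes, and 3 of the 8 had an unadjusted p under 0.05. The WAT median size was 0.96 against 0.98 over all genes.

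**Figure D1:**
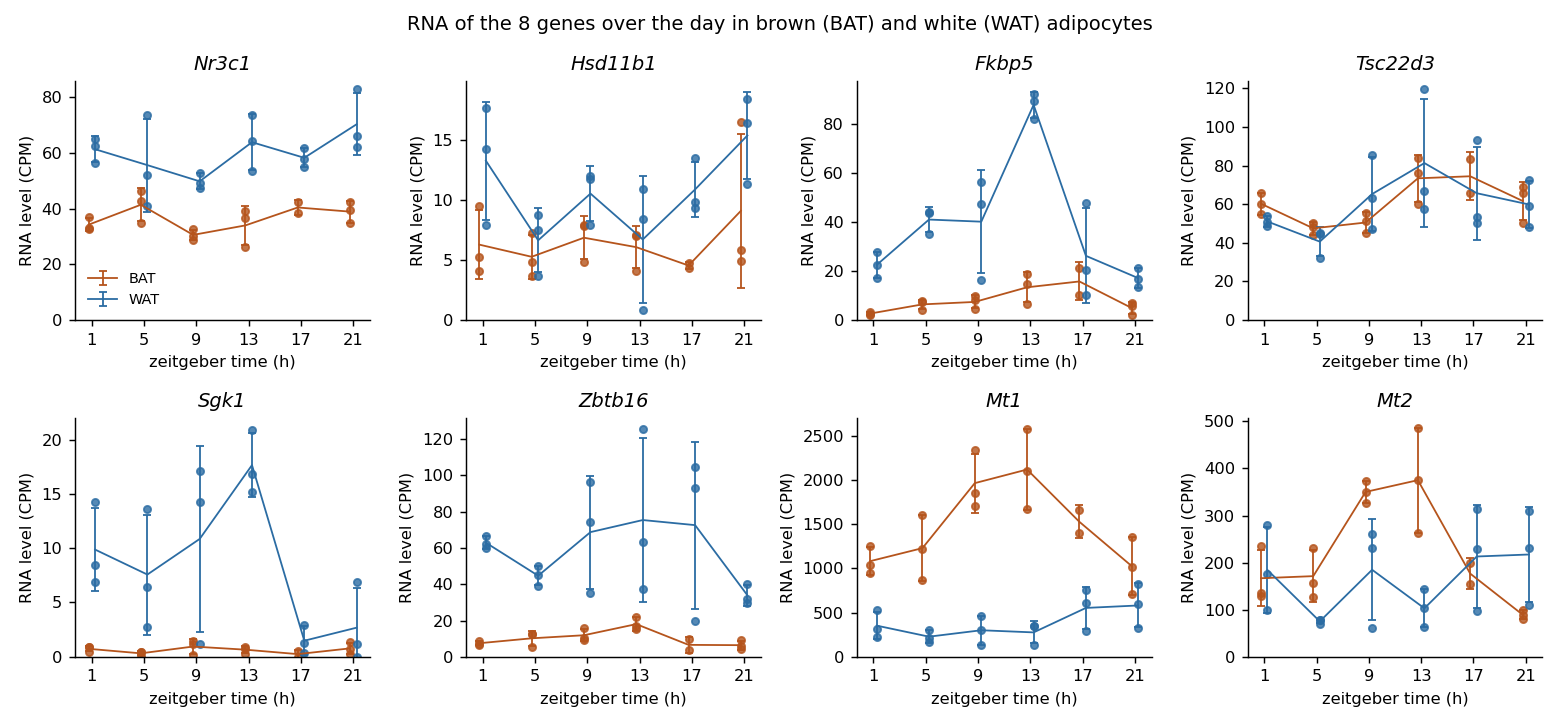
RNA level of each gene (CPM scaled by TMM, linear axis from 0) at 6 zeitgeber times in BAT (brown) and WAT (blue); points are libraries, lines join means and bars are SD (n = 3, or 2 for BAT at ZT17). Fkbp5 was highest in WAT at ZT13, where the 3 libraries lay between 82.2 and 92.3 CPM, and Mt1 was higher in every BAT library but one than in every WAT library.

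Levels of different genes can be set side by side only per transcript length. In the authors' deposited table of TPM for BAT, Mt1 had a median of 2817 TPM and Mt2 482 TPM over 17 libraries. The other medians in the authors' deposited table for BAT were 30.2 TPM for Tsc22d3, 4.79 for Nr3c1, 3.86 for Hsd11b1, 1.64 for Zbtb16, 1.54 for Fkbp5 and 0.185 for Sgk1. For WAT, the authors' deposited table gave 792 TPM for Mt1, 482 for Mt2, 29.1 for Tsc22d3, 12.8 for Zbtb16, 10.8 for Nr3c1, 9.28 for Fkbp5, 7.23 for Hsd11b1 and 3.55 for Sgk1. Metallothionein transcripts thus led the order in both depots. Ranges overlapped between neighbours in the lower part of that order: in BAT, Zbtb16 spanned 0.59 to 3.62 TPM and Fkbp5 0.41 to 4.84 TPM in the authors' deposited table.

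The receptor gene Nr3c1 was expressed at all times in both depots, from 26.1 to 46.3 CPM in BAT and from 41.0 to 82.9 CPM in WAT. Its fitted peak-to-trough size was 0.21 ± 0.16 (SE) in BAT and 0.46 ± 0.23 in WAT on the log2 scale, and edgeR's adjusted p was 0.366 in WAT. Hsd11b1, the enzyme that regenerates active hormone, ranged from 3.70 to 16.5 CPM in BAT and from 0.799 to 18.4 CPM in WAT, and was not called rhythmic in WAT either (edgeR adjusted p = 0.310). The lowest WAT value, at ZT13, rests on 1 count.

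Fkbp5 was called in both depots. In BAT the libraries gave 2.01, 2.57 and 3.42 CPM at ZT1, 7.69, 7.28 and 4.299 at ZT5, 9.76, 8.03 and 4.49 at ZT9, 14.7, 6.75 and 18.8 at ZT13, 21.3 and 10.3 at ZT17, and 5.69, 2.20 and 6.97 at ZT21. Every ZT13 and ZT17 library lay above every ZT1 library. The fitted curve peaked at ZT13.5 with a size of 2.10 ± 0.42 (log2, SE; 4.27-fold; edgeR adjusted p = 0.0146). In WAT the levels were 22.6, 17.05 and 28.0 CPM at ZT1, 43.7, 35.3 and 44.4 at ZT5, 56.7, 47.6 and 16.5 at ZT9, 89.5, 82.2 and 92.3 at ZT13, 47.9, 20.5 and 10.5 at ZT17, and 21.5, 16.7 and 13.3 at ZT21. The ZT13 libraries stood above all others. The WAT curve peaked at ZT10.9 with a size of 1.88 ± 0.40 (3.69-fold; edgeR adjusted p = 0.0140), and the depots' rhythms were not shown to differ by the interaction test (edgeR adjusted p = 0.163; the curve of BAT minus WAT had an amplitude of 0.76 ± 0.30 on the log2 scale, which is not a peak-to-trough size). The WAT call was lost with summed adipocyte markers as a covariate, an alternative chosen after seeing the data (size 1.302, adjusted p = 0.165), while in BAT the size was then 3.09 (adjusted p = 0.00168).

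Zbtb16 and Tsc22d3 passed in BAT by a small margin. Zbtb16, the zinc finger factor, was at 6.44, 7.15 and 8.85 CPM in BAT at ZT1, and at 15.1, 16.7 and 22.2 CPM at ZT13, above every library of the other times but one of ZT9. Its curve peaked at ZT10.4 with a size of 1.31 ± 0.33 (edgeR adjusted p = 0.0410). Tsc22d3, the leucine zipper gene, was lowest at ZT5 (48.2, 50.5 and 43.9 CPM) and reached 76.1, 60.2 and 83.9 CPM at ZT13 and 83.2 and 65.7 CPM at ZT17. Its size was 0.59 ± 0.15 with a peak at ZT17.1 (edgeR adjusted p = 0.0471). Leaving out single BAT libraries ended the Zbtb16 call in 12 and the Tsc22d3 call in 14 of 17 fits, with an adjusted p of up to 0.0906 and 0.0984. In WAT neither was called (edgeR adjusted p = 0.546 and 0.139). Sgk1 was close to the detection limit in BAT, with 0 to 56 counts per library, and had 0 to 119 counts in WAT. Its WAT libraries ran from 15.2 to 20.9 CPM at ZT13 and from 0.308 to 2.91 CPM at ZT17, without overlap. These times were picked from the 6 sampled and were not tested against each other. The ZT17 values rest on 15, 4 and 1 counts, the 4 in replicate 2, which was rich in ribosomal RNA loci. The 24 h curve of Sgk1 in WAT was not called (size 2.20 ± 0.94, edgeR adjusted p = 0.254). It was called under 1 of 7 other settings, with no filter on low counts (size 2.34, adjusted p = 0.0161), and its size was 0.30 with summed adipocyte markers as a covariate (adjusted p = 0.991).

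Both metallothioneins were rhythmic in BAT, with crests at ZT9 and ZT13. Mt1 was at 1253, 951 and 1041 CPM at ZT1, 1221, 864 and 1603 at ZT5, 1706, 1847 and 2339 at ZT9, 1670.1, 2104 and 2582 at ZT13, 1658 and 1396 at ZT17, and 1014, 1356 and 709 at ZT21. All 6 libraries of ZT9 and ZT13 lay above all others. Mt2 was at 236, 129 and 136 CPM at ZT1, 156, 126 and 232 at ZT5, 349.9, 327 and 373 at ZT9, 263, 376 and 486 at ZT13, 199.6 and 154 at ZT17, and 99.5, 80.6 and 88.9 at ZT21. Again the libraries of ZT9 and ZT13 were above all others, and ZT21 was below all others. The fitted size was 1.10 ± 0.19 with a peak at ZT11.7 for Mt1 (edgeR adjusted p = 0.00527) and 1.77 ± 0.27 with a peak at ZT10.4 for Mt2 (adjusted p = 0.00226). In the authors' deposited table of JTK_CYCLE results for BAT, Mt2 was the one member with a q under 0.05 (0.0376), and Mt1 had 0.0574. Such a q was reached by 609 of 14055 BAT genes, 4.33%, in the authors' deposited table. For WAT the authors' deposited table gave it for 0 of 8 members, the lowest q being 0.288 for Fkbp5, against 17 of 12541 genes, 0.136%.

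In WAT the highest levels of these genes fell at other times. Mt1 was at 314, 525 and 219.6 CPM at ZT1, 209, 168 and 306 at ZT5, 307, 135 and 458 at ZT9, 350.1, 132 and 346 at ZT13, 760.1, 288 and 609.9 at ZT17, and 597, 324 and 821 at ZT21. Mt2 was at 175, 279 and 98.6 CPM at ZT1, 70.2, 78.2 and 77.2 at ZT5, 232, 61.7 and 261 at ZT9, 103, 62.6 and 143 at ZT13, 314, 96.3 and 228 at ZT17, and 232, 109 and 311 at ZT21. The spread within a time point was wide, and the highest libraries of both genes were at ZT17 and ZT21. Neither passed in WAT: Mt1 had a size of 1.40 ± 0.40 with a fitted peak at ZT19.4 (edgeR adjusted p = 0.0600) and Mt2 0.96 ± 0.46 at ZT19.5 (adjusted p = 0.336). Without the 3 WAT libraries rich in ribosomal RNA loci, Mt1 passed (size 2.01, adjusted p = 0.00465). It also passed with DESeq2 (adjusted p = 0.0375), and without WAT ZT9 replicate 3 or WAT ZT13 replicate 2 alone, with an adjusted p as low as 0.00712. Among the 7 settings other than leaving out 1 library, Mt1 passed in WAT under 4.

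The difference in rhythm between depots was tested directly and was called for 2 of 7 members, Mt1 and Mt2, against 12.9% of 10999 genes (Sgk1 did not pass the joint filter on low counts). The amplitude of the curve of BAT minus WAT, a different scale from the peak-to-trough sizes above, was 1.00 ± 0.24 for Mt1 (edgeR adjusted p = 0.0185) and 1.21 ± 0.29 for Mt2 (adjusted p = 0.0180), both on the log2 scale. Both stayed under 0.05 when any one of the 35 libraries was left out.

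**Figure D2:**
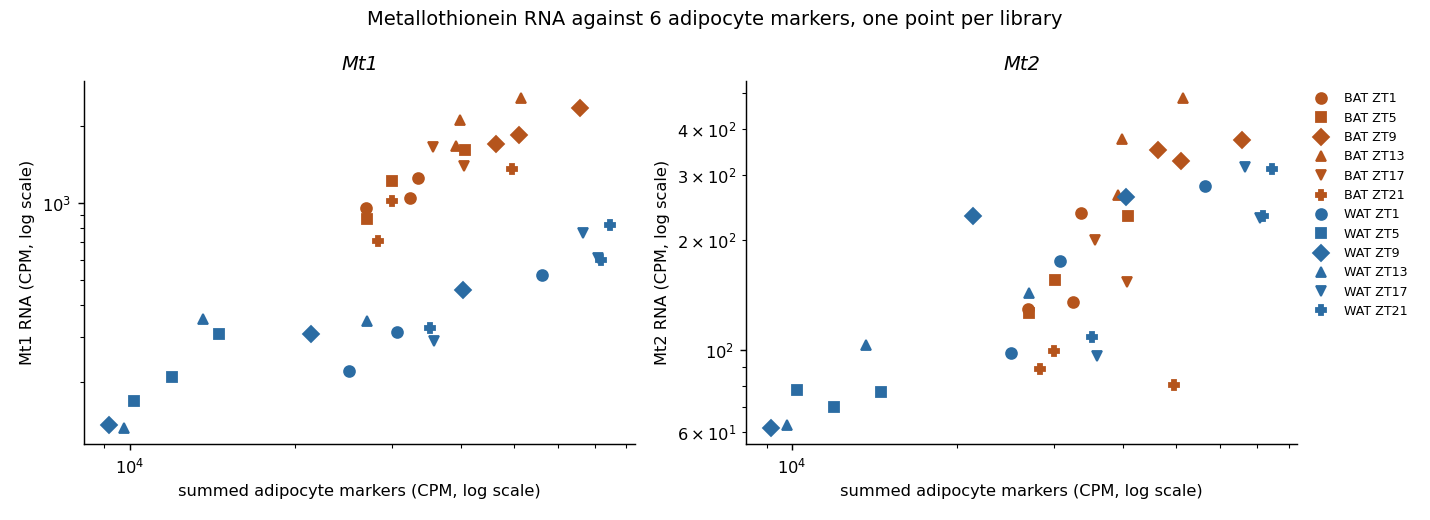
Mt1 (left) and Mt2 (right) RNA in CPM against the summed CPM of 6 adipocyte markers, both on log axes, 1 point per library, with brown for BAT, blue for WAT and the marker shape for zeitgeber time. In WAT the Mt1 points follow the marker sum (r = 0.92 on the log2 scale, 18 libraries), and the WAT libraries of ZT5 lie at its low end.

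The level of adipocyte markers moved with the metallothioneins. In WAT the summed adipocyte markers were 25029.7 to 56278 CPM at ZT1, 10209 to 14533 at ZT5, 9182 to 40437 at ZT9, 9787 to 26993 at ZT13, 35824 to 71032 at ZT17 and 35095 to 74669 at ZT21. In BAT they were 26876 to 33479 CPM at ZT1, 27022 to 40787 at ZT5, 46321 to 65733 at ZT9, 39134 to 51418 at ZT13, 35587 to 40583 at ZT17 and 28295 to 49532 at ZT21. The highest sums were at ZT9 and ZT13 in BAT and at ZT17 and ZT21 in WAT, as were the highest metallothionein levels of each depot, though ranges of several times overlapped. The RNA was purified with tagged ribosomes. A lower share of adipocyte RNA in a library and less of these RNAs per adipocyte cannot be told apart in it. Mitochondrial genes held 0.126% to 2.25% of counts in BAT libraries and 0.685% to 27.6% in WAT libraries. How that share relates to these levels was not tested.

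Over the 18 WAT libraries, log2 Mt1 followed the log2 marker sum with Pearson's r = 0.92 and Spearman's rho = 0.88 (permutation p = 1e-05 for each, the smallest that 100000 resamples can give; adjusted p = 0.00016 and 8e-05 over the 16 relations of 8 genes in 2 depots). Leaving out the 2 libraries farthest from the median marker sum gave r = 0.89, and r was 0.91 after the mean of each time was taken out. Mt2 in WAT had r = 0.88 and rho = 0.87 (permutation adjusted p = 0.00016 and 0.000213), 0.84 without the 2 farthest libraries and 0.91 within times. In BAT, Mt1 had r = 0.84 and rho = 0.88 (permutation adjusted p = 0.00048 and 8e-05), with 0.81 without the 2 farthest libraries and 0.84 within times. Mt2 in BAT had r = 0.62 and rho = 0.64 (permutation adjusted p = 0.0186 and 0.0155), with 0.56 and 0.35 on the same checks. Sgk1 and Fkbp5 went the other way in WAT: Sgk1 had r = -0.71 and rho = -0.72 (permutation adjusted p = 0.00323 and 0.00464) and Fkbp5 r = -0.66 and rho = -0.67 (permutation adjusted p = 0.0103 and 0.0103). Sgk1 had r = -0.66 without the 2 farthest libraries and -0.63 within times, and Fkbp5 -0.60 and -0.32. Nr3c1 in BAT was opposed to the marker sum (r = -0.74, rho = -0.67, permutation adjusted p = 0.00323 and 0.0119), with r = -0.80 and -0.78 on the same checks. Hsd11b1 in WAT went with it (r = 0.51, rho = 0.53, permutation adjusted p = 0.0417 and 0.0464), with r = 0.66 without the 2 farthest libraries and 0.08 within times.

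With the log2 marker sum as a covariate in the same models, a setting chosen after seeing the data, the depots' difference in rhythm was called for 0 of 7 members. The amplitude of BAT minus WAT was then 0.18 for Mt1 (edgeR adjusted p = 0.791) and 0.28 for Mt2 (adjusted p = 0.697). The fitted WAT peak moved from ZT19.4 to ZT9.78 for Mt1 and from ZT19.5 to ZT8.20 for Mt2, in curves that did not pass (adjusted p = 0.858 and 0.202). In BAT, Mt2 passed in that fit with a peak at ZT10.3 (size 1.51, adjusted p = 0.0491), and Mt1 did not (size 0.67, adjusted p = 0.0849). Of the 6 adipocyte markers themselves, 3 were called rhythmic in BAT and 0 in WAT in the main fit. The shares over all genes tested were 9.17% in BAT and 9.90% in WAT. Whether the marker calls reflect the content of adipocyte RNA or the level per adipocyte was not tested.

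Levels of the members were paired with each other in 28 pairs per depot. Of these, 1 pair in BAT and 3 in WAT had a permutation p, adjusted over all 56, under 0.05. Mt1 and Mt2 went together in BAT (r = 0.87, rho = 0.89, permutation adjusted p = 0.00028 and 0.00112, with r = 0.81 without the 2 farthest libraries and 0.63 within times) and in WAT (r = 0.90, rho = 0.92, permutation adjusted p = 0.00028 and 0.00056, with r = 0.87 and 0.93 on the same checks). Reads of these close paralogs could be split between them in counting, and this pair is uncertain for that reason. In WAT, Fkbp5 and Sgk1 were correlated (r = 0.72, rho = 0.78, permutation adjusted p = 0.0123 and 0.00317), with r = 0.68 without the 2 farthest libraries and 0.64 within times. Sgk1 and Mt1 were opposed there by Pearson's measure (r = -0.71, permutation adjusted p = 0.0133), with r = -0.58 without the 2 farthest libraries and -0.59 within times, while rho of -0.58 did not pass (permutation adjusted p = 0.0946). Levels of 2 genes in 1 library share its scaling and its content of adipocyte RNA, whatever that is. How far either bears on these correlations was not tested.

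The genes whose levels over libraries were most like a member's, among all genes tested in that depot, are given as a description. Mt2 in BAT was most like Per1 (r = 0.91 over 17 libraries), a clock gene that glucocorticoids also induce. Zbtb16 in BAT was most like Foxo1 (r = 0.89), and Fkbp5 in BAT like Dcun1d3 (r = 0.85) and Glul (r = 0.84), the latter encoding glutamine synthetase. Mt1 in WAT was most like Ckb (r = 0.97 over 18 libraries), the cytosolic creatine kinase, and Etfb (r = 0.97), a mitochondrial electron transfer subunit.

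ZT13 was compared with ZT1, a pair of opposite times picked from those sampled. It was picked because mouse corticosterone is known to be high near lights off and low near lights on. Other opposite pairs were not compared. In BAT, 3 of 8 members were higher at ZT13, against 1.50% of genes higher and 3.14% called in either direction. Fkbp5 was higher by 2.27 ± 0.45 (log2; 4.82-fold; edgeR adjusted p = 0.0132), Mt2 by 1.15 ± 0.26 (adjusted p = 0.0259) and Mt1 by 0.95 ± 0.24 (adjusted p = 0.0461). Zbtb16 differed by 1.23 ± 0.36 and was not called (adjusted p = 0.0708). Leaving out 1 library could end these calls: none of the 3 passed without BAT ZT1 replicate 2, ZT1 replicate 3 or ZT13 replicate 3, and 1 passed without ZT13 replicate 2. Mt1 by itself was lost in 8 further fits of this kind. In WAT, edgeR called 0 of 8 members against 0.394% of genes, and 1 had an unadjusted p under 0.05, Fkbp5, with a difference of 1.90 ± 0.44 (adjusted p = 0.0536). DESeq2 called that gene (adjusted p = 0.00101), as did edgeR without the 3 libraries rich in ribosomal RNA loci (adjusted p = 0.0166).

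Between depots, 3 of 7 members differed by at least 2-fold, against 47.3% of 10999 genes tested, so this share is not above the background. Mt1 was higher in BAT by 2.02 ± 0.22 (log2 of BAT over WAT; 4.05-fold; edgeR adjusted p = 2.76e-10). Fkbp5 was lower in BAT, at -2.28 ± 0.23 (adjusted p = 3.15e-11), and so was Zbtb16, at -2.58 ± 0.21 (adjusted p = 1.01e-13). Zbtb16 ranged from 3.52 to 22.2 CPM in BAT and from 19.9 to 126 CPM in WAT, and the ranges overlapped at 1 library of each depot. The WAT one, ZT17 replicate 2, was rich in ribosomal RNA loci. Nr3c1 and Hsd11b1 were lower in BAT by less than 2-fold (-0.73 ± 0.09 and -0.71 ± 0.21; adjusted p = 3.15e-09 and 0.00215). Tsc22d3 differed by 0.02 ± 0.11 and Mt2 by 0.40 ± 0.26, and neither passed (adjusted p = 0.900 and 0.153).

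**Figure D3:**
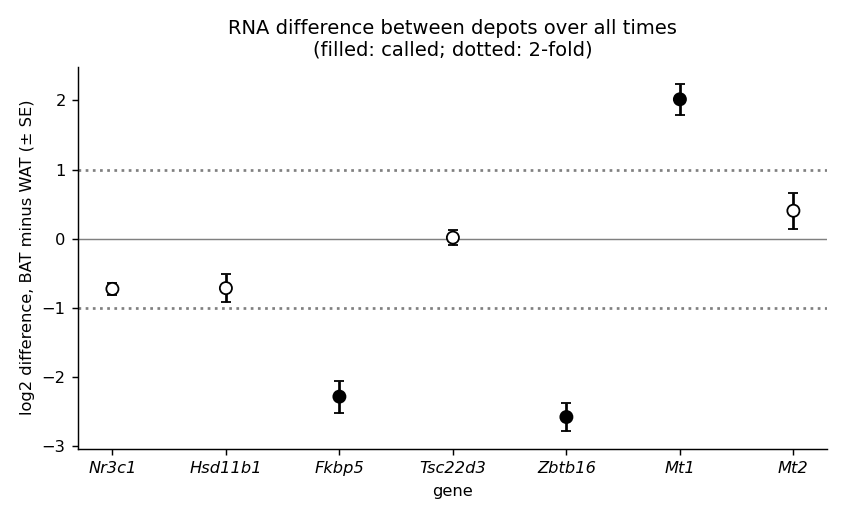
Log2 difference in RNA between depots (BAT minus WAT over all times, 17 and 18 libraries) for the 7 genes that passed the joint filter; bars are SE, filled points were called, and dotted lines mark 2-fold. Mt1 stands at 2.02 on the BAT side, and Fkbp5 at -2.28 and Zbtb16 at -2.58 on the WAT side.

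Markers of other cell types differed between these depots as well. The 5 fibroblast markers, of which 3 were detected in every library of each depot, summed to 5.74 to 48.7 CPM in BAT and 112 to 853 CPM in WAT, without overlap. Endothelial markers summed to 5.48 to 52.0 CPM and 46.2 to 273 CPM, macrophage markers to 8.07 to 14.1 CPM and 19.99 to 104 CPM, and lymphocyte markers to 0 to 0.424 CPM and 3.08 to 51.9 CPM, in BAT and WAT respectively. Erythroid markers summed to 32.1 to 250 CPM in BAT and 42.3 to 326 CPM in WAT, and epithelium markers to 0 to 4.09 and 0 to 27.4 CPM. Muscle markers went the other way, with 3 of 5 called higher in BAT. Their sums overlapped, at 21.9 to 632 CPM in BAT (median 95.7) and 5.84 to 408 CPM in WAT (median 50.7). The part of these cell types in the higher Fkbp5, Zbtb16 and Nr3c1 of WAT, or the higher Mt1 of BAT, was not tested.

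Other genes of the pathway were counted by lists. Among 22 tested genes known to respond to glucocorticoids (from a list of 24), 9 were called rhythmic in BAT and 3 in WAT. Over all genes tested, 9.17% in BAT and 9.90% in WAT were called. The list's median sizes were 0.83 and 0.65 against 0.49 and 0.98 over all genes. The BAT peaks of the called genes did not share 1 phase. Per1 (size 2.17 ± 0.35, ZT10.9; edgeR adjusted p = 0.0042), Nfkbia, the inhibitor of NF-kappaB (1.55 ± 0.29, ZT11.4; adjusted p = 0.0104), and Lpin1, a phosphatidate phosphatase (1.22 ± 0.18, ZT13.7; adjusted p = 0.0021), peaked in the same hours as the members. Angptl4, an inhibitor of lipoprotein lipase (2.14 ± 0.26, ZT2.79; adjusted p = 0.000345), Rgs2 (1.11 ± 0.20, ZT0.289; adjusted p = 0.0079) and Cdkn1a, a cell cycle inhibitor (1.89 ± 0.40, ZT0.116; adjusted p = 0.0197), peaked near lights on. With the marker covariate Lpin1 and Angptl4 were still called in BAT (adjusted p = 0.00316 and 0.00112), whereas Per1 (1.89, adjusted p = 0.0744), Rgs2 (1.01, adjusted p = 0.0598), Nfkbia (0.63, adjusted p = 0.167) and Cdkn1a (0.62, adjusted p = 0.388) were not. In WAT the calls were Angptl4 (1.58 ± 0.35, ZT0.780; adjusted p = 0.0167), Lpin1 (1.48 ± 0.35, ZT19.3; adjusted p = 0.0240) and Errfi1, a feedback inhibitor of the EGF receptor (2.403 ± 0.63, ZT5.01; adjusted p = 0.0408). With the covariate 0 of these 3 were called (adjusted p = 0.0521, 0.897 and 0.272), the Lpin1 size being 0.21. Leaving out single libraries ended the WAT call of Lpin1 in 7, of Errfi1 in 13 and of Angptl4 in 1 of 18 fits. The Lpin1 rhythm differed between depots by the interaction test (amplitude of BAT minus WAT 0.85 ± 0.20, edgeR adjusted p = 0.0174), but not with the covariate (0.35, adjusted p = 0.277).

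Of 12 tested genes that fold, carry or modify the receptor, 2 were called in BAT, the chaperone genes Dnajb1 (1.15 ± 0.21, ZT23.6; edgeR adjusted p = 0.0088) and Stip1 (1.03 ± 0.24, ZT1.90; adjusted p = 0.0300). Neither was called with the marker covariate (0.60 and 0.76; adjusted p = 0.153 and 0.150), and leaving out single libraries ended the Stip1 call in 3 of 17 fits. In WAT 2 of 12 were called, Fkbp4 (1.04 ± 0.28, ZT20.5; adjusted p = 0.0460) and Ptges3 (0.96 ± 0.26, ZT19.9; adjusted p = 0.0455), both lost in most fits that left out 1 library (17 and 15 of 18). Of the 9 zinc and metal handling genes tested, 0 were called in either depot, and of the oxidative stress genes 0 of 6 in BAT and 0 of 7 in WAT. The median sizes of the zinc list were 0.42 and 0.90 against 0.49 and 0.98 over all genes. Of the acute phase genes 1 of 6 was called in BAT, Il6ra, a receptor subunit for interleukin 6 (1.71 ± 0.29, ZT9.78; adjusted p = 0.0057), and 0 of 7 in WAT. Over all genes tested, 9.17% in BAT and 9.90% in WAT were called. Lists this short are not set apart from these shares by such counts.

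**Figure D4:**
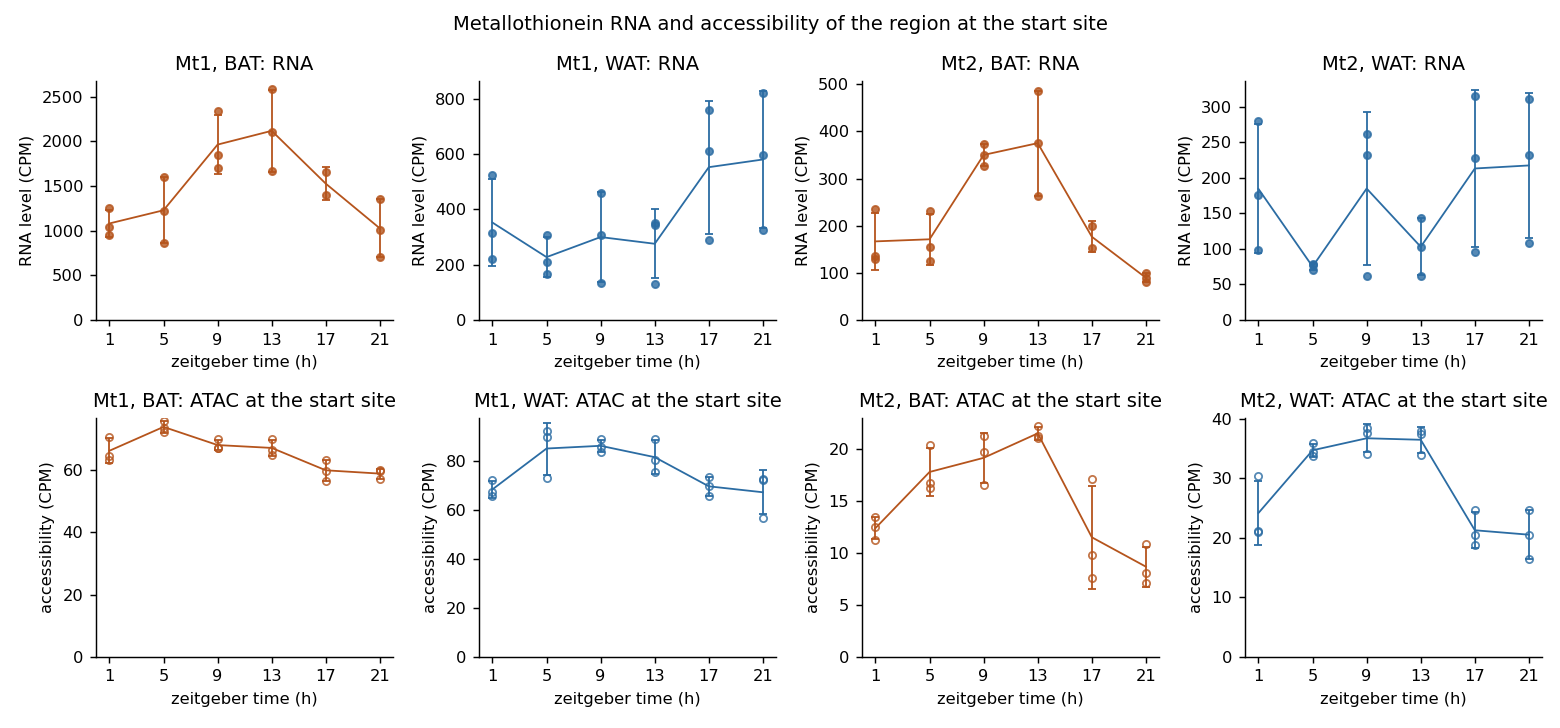
RNA level (top, filled points) and accessibility of the region at the start site (bottom, open points) of Mt1 and Mt2 in CPM, by zeitgeber time in BAT and WAT; points are libraries, lines join means and bars are SD (n = 3, or 2 for BAT RNA at ZT17). Accessibility of Mt2 was high at ZT5 to ZT13 in both depots. The highest WAT RNA points of both genes are at ZT17 and ZT21, in curves that were not called in the main fit.

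Chromatin at the metallothionein start sites was rhythmic in both depots and at similar hours. At Mt2, the region centred 59 bases from the start (chr8:94172602-94172752) gave in BAT 12.4, 11.2 and 13.4 CPM of ATAC tags at ZT1, 16.7, 20.4 and 16.2 at ZT5, 16.5, 19.6 and 21.2 at ZT9, 22.2, 20.998 and 21.2 at ZT13, 9.75, 7.60 and 17.1 at ZT17, and 8.09, 7.08 and 10.8 at ZT21. All libraries of ZT9 and ZT13 but one were above the highest ZT17 library. The fitted size was 1.21 ± 0.20 (log2) with a peak at ZT9.42 (edgeR adjusted p = 0.00124). The corresponding WAT region gave 30.4, 21.1 and 21.1 CPM at ZT1, 34.5, 36.0 and 33.8 at ZT5, 37.7, 38.4 and 34.1 at ZT9, 34.0, 38.0 and 37.6 at ZT13, 20.4, 18.8 and 24.6 at ZT17, and 16.4, 20.4 and 24.7 at ZT21. The 9 libraries of ZT5, ZT9 and ZT13 were above the 9 others, and the size was 1.01 ± 0.14 with a peak at ZT8.82 (adjusted p = 0.000151). Distances are in bases from the start, with a minus sign for upstream. A further Mt2 region at -957 was called in WAT (1.12 ± 0.22, ZT10.5; adjusted p = 0.0033) and not in BAT.

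At Mt1, the region at the start had a size of 0.29 ± 0.05 with a peak at ZT6.79 in BAT (edgeR adjusted p = 0.0018) and 0.43 ± 0.08 at ZT8.72 in WAT (adjusted p = 0.00285). A region 4277 bases from the start was called in both depots (0.32 ± 0.09 at ZT7.63 and 0.37 ± 0.08 at ZT9.52). An intergenic region 10377 bases from the start in BAT had a size of 0.83 ± 0.20 with a peak at ZT7.79 (adjusted p = 0.0176), and its WAT counterpart, at 10439 bases, had 0.77 ± 0.24 and was not called (adjusted p = 0.0663). The WAT start site regions of both metallothioneins thus peaked near ZT9. The WAT RNA of neither gene was called in the main fit, though Mt1 passed under 4 of 7 other settings. The hours of RNA and chromatin are therefore not compared there.

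**Figure D5:**
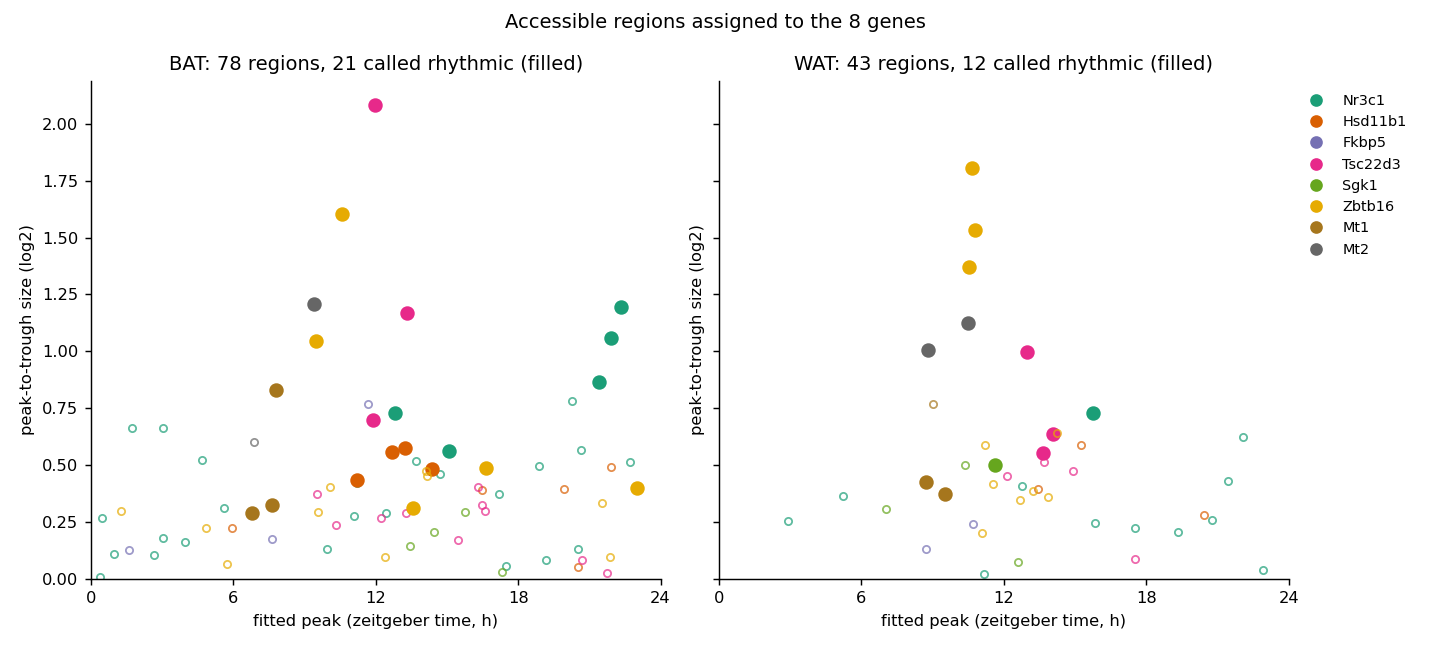
Peak-to-trough size of accessibility (log2) against fitted peak time for 78 BAT (left) and 43 WAT (right) regions assigned to the 8 genes, coloured by gene; filled points were called rhythmic. The 12 called WAT regions lie between ZT8.72 and ZT15.8, and 3 of the 4 called BAT regions after ZT18 belong to Nr3c1.

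Over all members, 21 of 78 regions in BAT and 12 of 43 in WAT were called rhythmic, against 18.9% of BAT and 15.8% of WAT regions. Most called regions peaked between ZT6 and ZT18, 17 of 21 in BAT and 12 of 12 in WAT, a window chosen after seeing the data. Among all called regions, 50.7% in BAT and 54.0% in WAT fell in it. Regions assigned to 1 gene share that gene's locus and are not replicates.

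The largest rhythms were in distal regions of Zbtb16 and Tsc22d3. An intron of Zbtb16, 112078 bases from the start (chr9:48723792-48723942 in BAT), gave 8.88, 4.57 and 7.46 CPM at ZT1, 9.26, 9.01 and 10.5 at ZT5, 17.6, 14.8 and 13.1 at ZT9, 13.5, 17.4 and 20.8 at ZT13, 8.36, 8.89 and 7.38 at ZT17, and 7.28, 4.33 and 5.67 at ZT21 in BAT. ZT9 and ZT13 were above all other times. The size was 1.60 ± 0.19 at ZT10.6 in BAT (edgeR adjusted p = 7.22e-05) and 1.81 ± 0.28 at ZT10.7 in WAT (adjusted p = 0.000455). Another intronic region, 106208 bases from the start, was called in both (0.31 ± 0.08 at ZT13.6 in BAT and 1.53 ± 0.21 at ZT10.8 in WAT). The regions nearest to the Zbtb16 start were not called, at -61 in BAT (adjusted p = 0.943) and at -469 in WAT (adjusted p = 0.541).

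For Tsc22d3, an intergenic region 36687 bases from the start was called in BAT (2.08 ± 0.27, ZT12.0; edgeR adjusted p = 0.000169). It held 10.1 to 15.0 CPM at ZT9 and 10.7 to 22.8 at ZT13 against 3.32 to 4.04 at ZT21, with no overlap. In WAT, regions 22225 and 31420 bases from the start were called (0.64 ± 0.11 at ZT14.1 and 0.55 ± 0.10 at ZT13.6; adjusted p = 0.00122 and 0.0027). An intronic region of Tsc22d3 was called in both depots, at ZT13.3 in BAT and ZT13.0 in WAT. Fkbp5 had rhythmic RNA in both depots and no region called rhythmic. Its start site region had an adjusted p of 0.185 in BAT and 0.249 in WAT, and none of its 3 BAT and 2 WAT regions was called. Over all regions 18.9% in BAT and 15.8% in WAT were called, so the lack of calls among so few does not set Fkbp5 apart. Hsd11b1 had 4 of 9 BAT regions called, all between ZT11.2 and ZT14.4, and 0 of 3 in WAT, while its RNA was not called in either depot.

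Nr3c1 had 5 of 29 regions called in BAT and 1 of 12 in WAT. An intergenic region at -105874 (-105869 in WAT) was called in both depots, at ZT15.1 in BAT (0.56 ± 0.09; edgeR adjusted p = 0.00112) and ZT15.8 in WAT (0.73 ± 0.15; adjusted p = 0.00676). Of 39 member regions that overlapped between depots by at least 75 bp, 7 (17.9%) were called in both, 4 (10.3%) in BAT alone and 4 (10.3%) in WAT alone. Over all 21626 tested regions shared in this way, the shares were 5.86%, 11.5% and 8.17%. The difference between depots was not tested for these regions. For the 7 called in both, the fitted peaks lay 0.0534 to 2.81 h apart.

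BMAL1 peaks, from 1 set of 212 bp regions for both ChIP libraries, were assigned to all 8 genes, 21 peaks in all. Scores are the authors' own and rank peaks within that set, where the median was 6.16 and the range 2.91 to 201.3. Within 1000 bases of a start site, 4 members had a peak, Mt2, Mt1, Fkbp5 and Hsd11b1, and so did 5876 of the 8250 genes named in the peak table. The Mt2 peak (chr8:94172587-94172799) had a score of 13.4 and rank 627 of 10368, with scaled tags of 10.6 and 15.4 in the libraries. It covers the metal response core that begins 4 bases after the start in the sequence above. The Mt1 peak (chr8:94178979-94179191) had a score of 12.3 (rank 763) and scaled tags of 13.4 and 10.6, and it covers the receptor core and the 3 metal response cores shown. No E-box was found in either metallothionein window, which says only that these letters are not there.

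The Fkbp5 peak (chr17:28486108-28486320) had a score of 9.59 (rank 1552), with scaled tags of 9.94 and 8.55, and covers the E-box printed for that gene. An E-box was found in 18.7% of the 4170 promoter windows with a BMAL1 peak centre and in 5.47% of the 28647 without. The peak near the Hsd11b1 start had a score of 5.99 (rank 5233). The E-box of Sgk1 lies in a window with no BMAL1 peak.

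The highest scores among these 21 peaks were distal to Tsc22d3, at 31446 bases (score 20.9, rank 185) and 22316 bases (18.8, rank 243) from its start. Both lay over the WAT regions called rhythmic near ZT14. The BAT regions under these 2 peaks were not called, by a small margin. At 31446 bases the BAT fit peaked at ZT12.2 (edgeR adjusted p = 0.0727), and at 22316 bases at ZT16.6 (adjusted p = 0.0503). The difference between depots was not tested for these regions. At Nr3c1, the highest of 6 peaks was at -2692 (score 14.6, rank 495), over regions called in neither depot. A Zbtb16 peak 112053 bases from the start (score 4.62, rank 7929) lay over the intronic region called in both depots, and a Sgk1 peak (7.53, rank 3048) over a WAT region called at ZT11.6 (edgeR adjusted p = 0.0177). Of the 21 peaks, 14 (66.7%) overlapped a WAT accessible region by at least 75 bp, as did 55.9% of all BMAL1 peaks. BMAL1 was mapped at 1 time, in inguinal fat of C57BL6J mice and not in sorted nuclei of the tagged mice. Binding over the day is not given by these data.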

How the data were processed

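RNA was counted in 35 libraries, ATAC in 36 and BMAL1 ChIP in 2. The authors deposited expected counts per gene, made with STAR 2.7.5 and RSEM 1.3.0 per the submitters' processing notes, which also name the mm10 build. The RNA kit marks strand, but no source used here gives the strand setting of the counting. The authors' deposited tables also hold TPM and p-values and q-values of JTK_CYCLE, per the file headers. ATAC values are the authors' raw tag counts per region of 150 bp, in 1 region set per depot, per the file headers. BMAL1 values are peak scores and a scaled tag signal deposited by the authors (HOMER, per the file headers; Bowtie2 2.4.1 is named in the submitters' processing notes).

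Expected counts were rounded. Of 55487 gene IDs, 55394 matched a symbol, and 1 column of no listed sample was not used. edgeR 4.0.16 (R 4.3.3) was used with TMM scaling, filterByExpr and quasi-likelihood tests. Rhythms were fitted with a cosine and a sine of 24 h. Benjamini-Hochberg adjustment ran over all features, with calls at 0.05, and at least 2-fold between depots. Correlations used log2 CPM with a prior count of 2 and 100000 resamples. DESeq2 1.42.0, another scaling, no filter, time as a factor, a replicate block, left-out libraries and an adipocyte marker covariate were alternatives. The members and all gene lists were chosen with earlier results of these data known. List genes are named if called rhythmic, up to 6 per list and depot, and regions if nearest to a start or called, up to 10 per depot. Genes of like pattern are examples from the 2 most like each member by Pearson correlation. ATAC libraries held 3959384 to 12811242 tags in BAT regions and 1623006 to 5294923 in WAT regions, and the ChIP libraries 29167659 and 29250608 tags. The fits were tested on simulated data. For RNA these had a fixed spread between libraries, the same for all genes and both depots. Changes were placed only in genes above a minimum expected count. In BAT RNA, 29% of genes with a simulated log2 size of 1 and 100% of those with 2 were recovered among 12301 genes, and in WAT 22% and 97% among 12118. Recovery at the real spread of each depot, or for genes of low count such as Sgk1, was not tested.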

Additional observations from a re-analysis of the deposited data

Results flagged for a closer look

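The rhythms of Mt1 and Mt2 RNA differed between BAT and WAT by the test of the difference itself, with an edgeR adjusted p of 0.0185 for Mt1 and 0.0180 for Mt2. The amplitude of the difference between fitted curves was 1.00 for Mt1 and 1.21 for Mt2 on the log2 scale, which is not a peak-to-trough size, over 35 libraries. With summed adipocyte markers as a covariate neither passed (adjusted p = 0.791 and 0.697).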

How the results depend on the processing

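The 5 BAT rhythm calls became 3 with time as a factor and 3 with summed adipocyte markers as a covariate, and ranged from 3 to 5 when 1 library was left out. The 1 WAT rhythm call became 3 with no filter on low counts, 2 with DESeq2, 2 without the 3 libraries rich in ribosomal RNA loci and 0 with the marker covariate, and ranged from 1 to 2 when 1 library was left out. The 2 depot differences in rhythm became 0 with the covariate and stayed at 2 whichever library was left out, as did the 3 differences between depots at 3. The 3 BAT calls of ZT13 against ZT1 became 1 with the covariate and ranged from 0 to 4 when 1 library was left out. In WAT that count of 0 became 1 under each of the 7 other settings, the gene being Fkbp5, and ranged from 0 to 1 when 1 library was left out. With time as a factor the rhythmic regions were 36 in BAT and 20 in WAT, and leaving out 1 library gave 15 to 24 and 11 to 15. The cause of these changes was not tested.

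No called difference changed sign, but uncalled ones did, with the cause not tested. Between depots, Tsc22d3 was at -0.065 with DESeq2's size factors and with its test, -0.0060 without the libraries rich in ribosomal RNA loci, -0.0099 with the covariate and -0.031 to 0.063 when 1 library was left out, and Mt2 was at -0.010 with the covariate. For ZT13 against ZT1 the covariate gave 0.21 for Nr3c1 and 0.24 for Hsd11b1 in BAT, and 0.11 for Nr3c1, -0.27 for Sgk1, 0.77 for Mt1 and 0.41 for Mt2 in WAT, where Mt1 and Mt2 were otherwise at -0.45 and -0.93. Nr3c1 in WAT was also at 0.11 with the size factors, 0.12 with DESeq2, 0.037 with no filter and 0.059 without mitochondrial genes and ribosomal RNA loci, and Zbtb16 in WAT at -0.00013 with the replicate block. Leaving out 1 library gave -0.14 to 0.13 for Nr3c1, -0.53 to 0.12 for Sgk1 and -0.33 to 0.34 for Hsd11b1 in BAT, and -0.11 to 0.18 for Nr3c1, -0.42 to 0.60 for Zbtb16 and -0.65 to 0.036 for Mt1 in WAT.

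Replicate numbers were not shown to pair the libraries, nor was pairing excluded. Correlations of same-numbered deviations ran from -0.46 to 0.35 in BAT RNA and from -0.44 to 0.39 in WAT RNA. Their medians were 0.056 and 0.025, against -0.016 and -0.017 for libraries of other numbers. Between BAT and WAT RNA of the same time and number, 17 pairs ran from -0.31 to 0.23, with a median of 0.0052 against -0.012 for other numbers. With the replicate number as a block, the rhythm calls were 3 in BAT and 2 in WAT, the depot differences in rhythm 2, the depot differences 3, the ZT13 calls 2 in BAT and 1 in WAT, and the rhythmic regions 18 in BAT and 12 in WAT. Sgk1 had at most 56 counts in a BAT library. WAT RNA libraries were shallower than most of BAT, and changes of a log2 size near 1 could be missed in both.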
